A study of Drosophila melanogaster with 23 samples.

Results

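Dissected adult eyes of Drosophila melanogaster were compared with adult Elav cells, neurons of the brain marked by a general neuronal driver, gene by gene. The comparison took in the 3 arrays whose titles name eyes from adult flies and the 3 arrays whose titles name Elav cells from adult flies, 6 of the 23 arrays and 2 of the 8 groups of the series. The Elav cells carried Elav-Gal4;UAS-GFP, which puts green fluorescent protein in cells where the Elav driver is active, and were picked from dissociated brains by hand. The eyes were dissected from the head and not sorted. Their labels give no cell type, genotype or driver. As whole dissected tissue, the eye samples can hold pigment, cone, glial and other cells beside photoreceptors, while the Elav arrays hold selected neurons. The labels of both groups share flies kept in cycles of 12 h of light and 12 h of dark, dissection of about 50 heads near Zeitgeber time 12, when lights go off, and RNA amounts of 0.1 to 0.4 ng amplified in 2 rounds. The protocol text on protease digestion and collection of GFP-positive cells also stands on the eye samples, whose own label says dissected eye. The series profiled clock neurons, and the eye and the Elav cells are the adult samples in it that were not chosen for PDF.

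In the fly eye each ommatidium holds photoreceptor neurons whose rhodopsin is packed into a stack of membrane, the rhabdomere. Light-activated rhodopsin acts through a Gq protein and phospholipase C to open the channels TRP and TRPL, arrestins end the rhodopsin signal, and the photoreceptor releases histamine onto its targets. Photoreceptors also run a circadian clock of their own, and, being neurons, they express Elav protein themselves.

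Values are log2 expression values, and a level of 5 was taken as the limit of detection. Calls needed a fold of at least 2 and a limma p under 0.05 after Benjamini-Hochberg adjustment over all 7670 genes tested. Where an array of the dimmer group lay below 5, the fold is a lower bound, computed with values under 5 raised to 5. Of the 7670 genes, 3063 (39.9%) were called, 1107 of them higher (14.4%) and 1956 lower (25.5%) in the eye. Groups did not overlap for 1537 genes with the eye higher (20%) and for 2785 genes with the eye lower (36.3%). The difference reached 16-fold for 508 genes called higher and 280 called lower. A total of 486 genes lay above the limit on all 3 eye arrays and below it on all 3 Elav arrays, and 285 did the reverse. Counts below are read against these shares. The median difference over all genes was -0.50 (log2). Centring each array on the median of its own values above 5 moved that median by 0.64, and the split of calls became 1492 higher and 1107 lower, while another quantile normalization moved it by 0.29 and gave 1320 higher and 1530 lower. For many lists the count of calls under centring is therefore given below, and for some genes whether the call held. Differences of single genes under centring are not given.

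**Figure D1:**
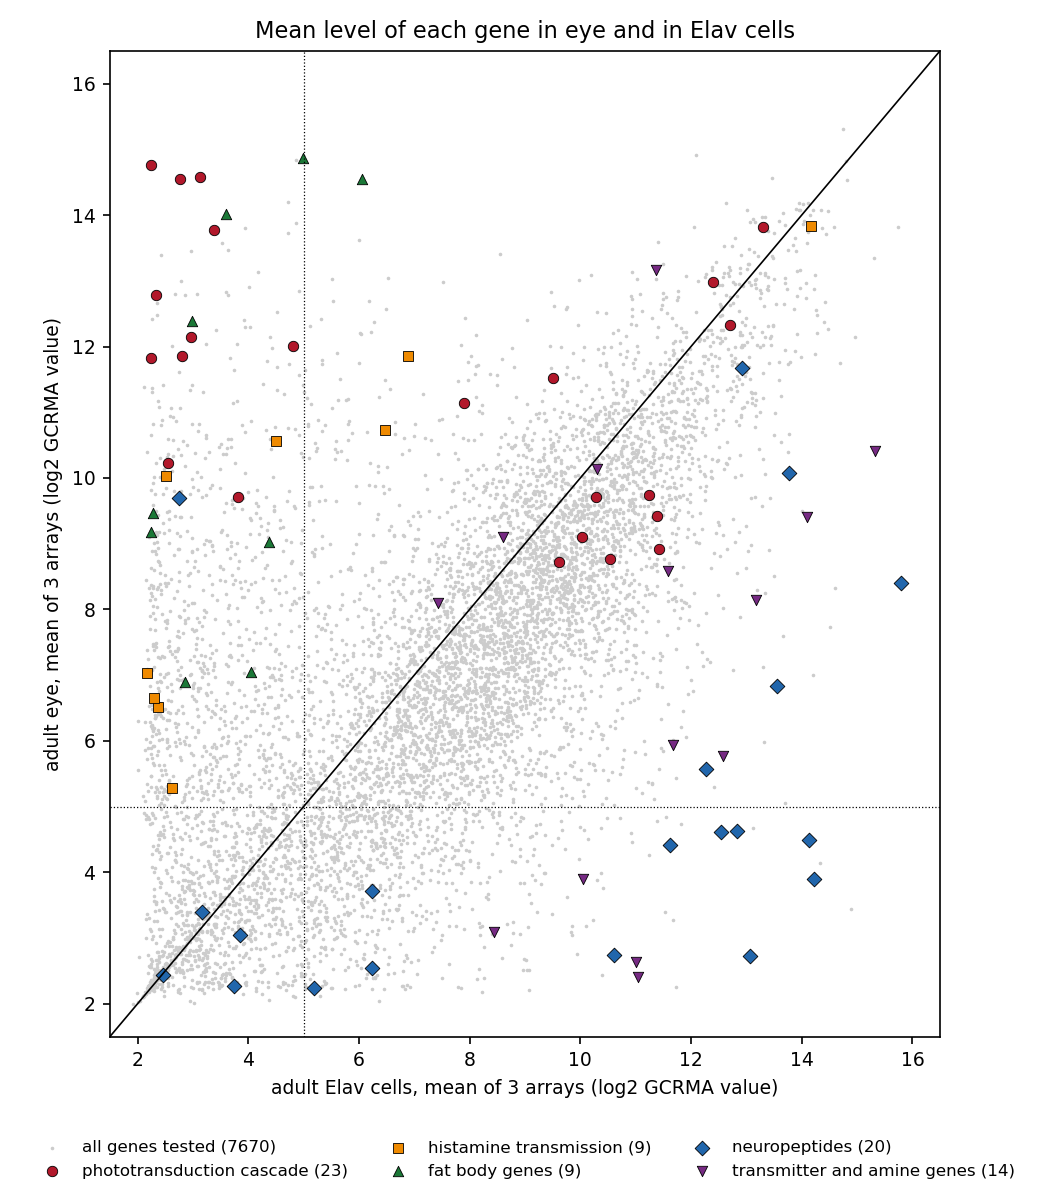
Mean log2 value of each tested gene in adult Elav cells (horizontal) and in the adult eye (vertical), each the mean of 3 arrays. Grey points are all 7670 genes, coloured symbols are members of 5 gene lists, the solid line marks equal levels and the dotted lines mark the limit of detection at 5. Many phototransduction, histamine and fat body genes lie far above the line, other phototransduction genes lie near it, and most neuropeptide and transmitter genes lie far below.

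The labels were checked against marker genes. On the eye arrays the photoreceptor genes Arr1, Arr2, trp, chp and inaD lay between 11.51 and 15.04, and on the Elav arrays between 2.19 and 4.71. The photoreceptor markers gl and Hdc were less clear. gl lay between 9.85 and 11.73 in the eye and between 3.87 and 6.17 in the Elav cells. Hdc overlapped, at 11.51 to 12.11 in the eye and 2.35 to 12.24 in the Elav cells. The pan-neuronal gene elav lay at 12.82, 12.32 and 11.53 in the eye and at 12.79, 13.04 and 12.82 in the Elav cells. The groups overlapped, and elav was not called (adjusted p = 0.308). Pdf, the peptide gene of the clock neurons, lay below 5 on all 3 eye arrays and on 2 of the 3 Elav arrays. Eye arrays correlated with each other at r of 0.923 to 0.958 over genes, Elav arrays at 0.891 to 0.937, and eye with Elav arrays at 0.556 to 0.678.

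Individual arrays stood apart for some genes. On Elav replicate 3, 146 genes lay above 7 while the other 2 Elav arrays lay below 5, against 12 genes each for Elav replicates 1 and 2. Among these 146, Cyp4g1 (a cytochrome P450 of cuticular hydrocarbon synthesis) lay at 3.66, 4.17 and 13.26 and Gasp (a chitin-binding protein of the trachea) at 2.42, 2.40 and 10.79. All 6 tested members of the epidermal and tracheal list were highest on Elav replicate 3, with a list median of 8.40 there against 3.47 and 2.90. In the eye, replicate 3 was the array that differed most, with 13 genes below 5 there and above 7 on both other eye arrays, and 25 genes the other way round. The 25 included CG14645 at 3.44, 3.33 and 14.33 and the ovarian genes osk and dhd, at 7.67 and 7.15 on replicate 3 only. Results that rest on these arrays are given below with and without them.

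Genes of the phototransduction cascade were mostly higher in the eye. Of 23 members tested, of 29 listed, 13 were called higher and 3 lower, and the median difference was 3.23, against -0.50 over all genes. With arrays centred 14 were called higher and 1 lower. The arrestin gene Arr1 lay at 14.74, 14.60 and 14.94 on the eye arrays and at 2.25, 2.24 and 2.23 on the Elav arrays. The difference of 12.52 ± 0.49 (SE) was a rise of at least 867-fold (adjusted p = 2.03e-13). Arr2, the major arrestin of the photoreceptor, was at least 761-fold higher (14.54, 14.14 and 15.04 against 2.34, 4.71 and 2.32). Both arrestins were thus near the top of the scale in every eye and below the limit in every Elav sample.

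The channels followed the same pattern. The light-gated cation channel gene trp lay at 14.77, 14.47 and 14.39 in the eye and at 2.86, 2.76 and 2.68 in the Elav cells, at least 746-fold higher. Its partner trpl lay at 13.19, 11.96 and 13.22 against 2.20, 2.38 and 2.43, at least 221-fold higher. The eye-specific G protein subunit gene Gbeta76C was at least 113-fold higher (11.72, 11.04 and 12.70 against 2.23, 2.26 and 2.24). None of these genes was above the limit on an Elav array. The scaffold gene inaD, which holds TRP, phospholipase C and protein kinase C together, was at least 141-fold higher, and inaC, the eye protein kinase C, at least 116-fold. The retinophilin gene rtp was at least 438-fold higher, and stops, which stabilises phospholipase C protein, at least 129-fold. PIP82, a rhabdomere-associated protein, was at least 37.6-fold higher, with every Elav array between 2.54 and 2.56.

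Other members of the cascade differed less than the arrestins and channels. Calx, the sodium and calcium exchanger, lay at 11.20, 10.67 and 11.55 in the eye and was already at 7.08, 8.59 and 8.05 in the Elav cells, a measured rise of 9.41-fold (adjusted p = 0.000368). The rhodopsin phosphatase gene rdgC rose 4.06-fold (adjusted p = 0.0282), a call lost without eye replicate 1 or 3 or Elav replicate 1 or 3. The lipid phosphatase gene laza lay at 9.33, 9.40 and 10.40 against 2.34, 2.28 and 6.84, at least 17.1-fold higher, with 1 Elav array above the limit. The phosphatidylinositol transfer gene rdgB lay at 13.88, 13.94 and 13.64 against 13.14, 13.58 and 13.21 and was not called (adjusted p = 0.647). Cds and Pis, which make and recycle phosphoinositides, were not called either, with differences of -0.38 and 0.59. Fkbp59 and Gprk1 (a receptor kinase) were called lower, 3.42-fold and 2.84-fold, and neither call held once arrays were centred. Gprk1 also lost it after another quantile normalization and without eye replicate 2 or Elav replicate 1.

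For some genes of the cascade the answer depended on the probe set. Galphaq, the Gq subunit that rhodopsin activates, was represented by its probe set with the highest mean, which lay at 9.09, 8.80 and 8.85 in the eye and at 11.20, 11.74 and 11.34 in the Elav cells, a fall of 5.70-fold (adjusted p = 2.33e-05). When every probe set was tested on its own, another Galphaq probe set lay at 2.66, 2.73 and 2.58 in the Elav cells and at a mean of 12.81 ± 0.821 (SD, n = 3) in the eye, at least 225-fold higher, and the remaining one lay at 9.58 against 8.78 and was not called. A single probe set was thus detected in the eye only and the others in both groups. With the mean of all probe sets taken, the difference of Galphaq was 2.81 with the eye higher. The diacylglycerol kinase gene rdgA was not called on its brightest probe set (9.66, 8.22 and 9.41 against 10.38, 9.91 and 9.80), but 2 of its 4 probe sets were called higher. The first was at least 40.2-fold higher (10.33 ± 0.251 against 2.22 ± 0.0262, SD, n = 3) and the second lay at 10.34 ± 0.340 against 6.35 ± 0.918 (SD, n = 3; adjusted p = 0.00076). The remaining probe set was not called, and the mean of all 4 rdgA probe sets gave a difference of 3.17. For inaE, a lipase of the cascade, 1 of 3 probe sets was at least 4.40-fold lower and the others were not called. Over all genes, 447 had more than 1 probe set tested, and 16 of these had probe sets called in opposite directions, 2 of them in the lists, Galphaq and Gpdh1. Which transcripts each probe set detects was not analysed here. Genes named for their probe sets or for an array that stood apart were picked out after their values were seen.

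**Figure D2:**
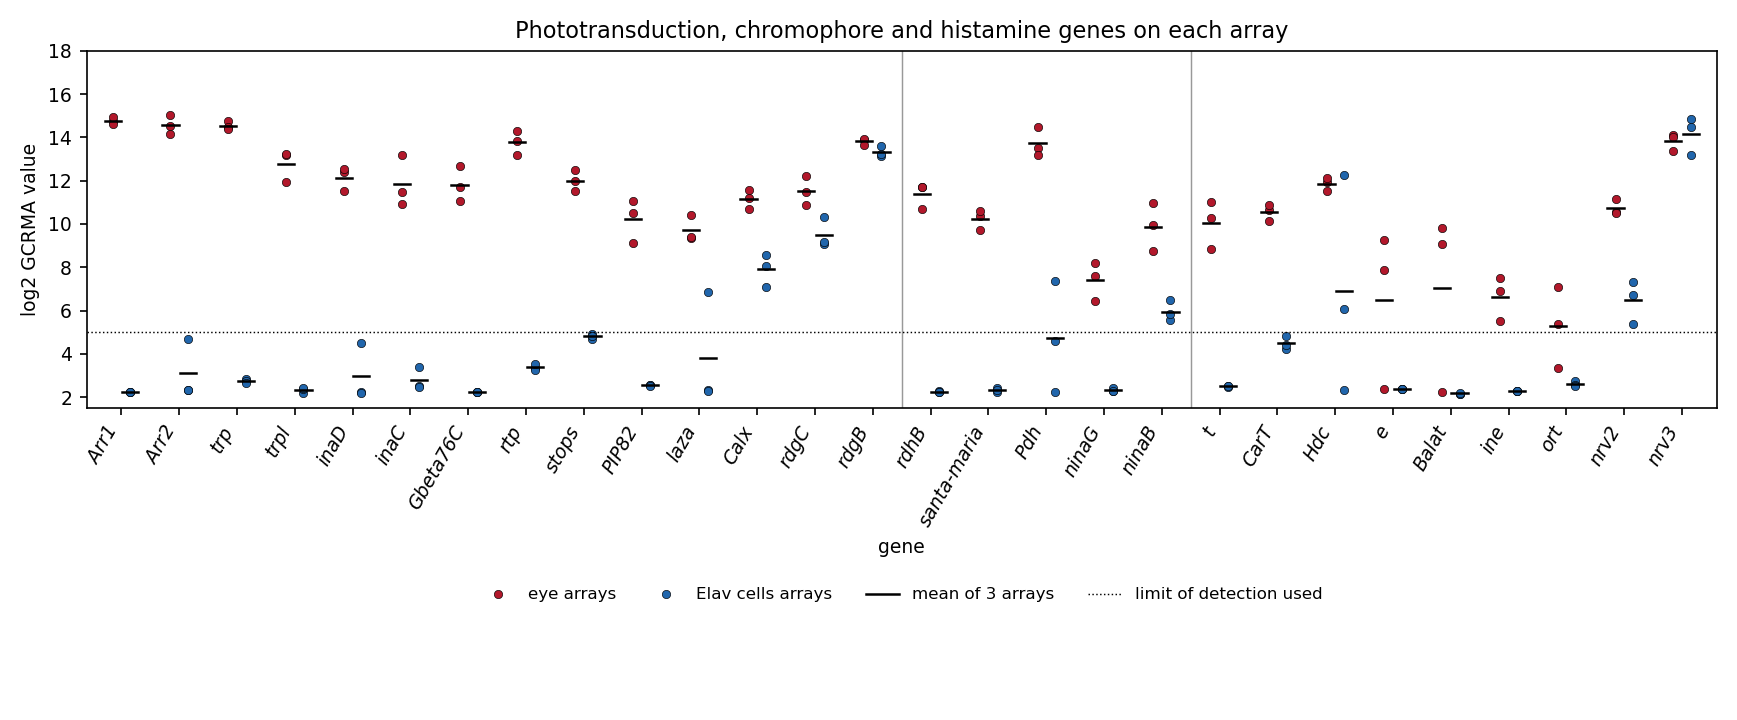
Log2 values of 28 genes of phototransduction (left), chromophore handling (middle) and histamine transmission (right) on each of the 3 eye arrays (red) and 3 Elav arrays (blue), with the mean of 3 arrays as a bar and the limit of detection dotted. Most eye values lie above 9 with Elav values below 5, while rdgB and nrv3 lie together in both groups and Hdc, e, Balat and ort have single arrays far from the rest.

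Chromophore genes rose with the cascade. Of 7 members of the rhodopsin and chromophore list tested, 6 were called higher and none lower, with a median difference of 5.10. Of the opsins themselves only Rh7 was represented, and the others were not analysed here. Rh7, which is also known from brain clock neurons, lay at 8.09, 7.10 and 6.06 in the eye and at 7.34, 2.99 and 6.55 in the Elav cells. The groups overlapped and Rh7 was not called (adjusted p = 0.284).

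The retinol dehydrogenase gene rdhB, which acts in making the chromophore, lay at 11.72, 10.70 and 11.70 in the eye and at 2.29, 2.25 and 2.24 in the Elav cells, at least 82.8-fold higher. Pdh, a dehydrogenase of the retinal pigment cells, lay at 13.51, 13.20 and 14.47 against 7.35, 2.24 and 4.59, at least 246-fold higher. Only 1 Elav array held Pdh above the limit. The carotenoid scavenger receptor gene santa-maria was at least 37.6-fold higher. The carotenoid oxygenase gene ninaB, which cleaves carotenoids to retinal, was detected in both groups and 15.2-fold higher (9.95, 8.73 and 10.95 against 5.56, 6.47 and 5.84). ninaG, an oxidoreductase that completes the chromophore, was at least 5.36-fold higher. pinta, a retinoid-binding protein of pigment cells, lay at 5.12, 5.08 and 7.48 against 3.40, 3.20 and 3.67, and its call was lost when values under 5 were raised to 5.

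The rhabdomere and polarity list was mixed. Of 12 members tested, 4 were called higher, none lower and 8 were not called, and the median difference was 0.27. Without eye replicate 1, Elav replicate 1 or Elav replicate 2 the count was 2. The chaoptin gene chp, whose product holds rhabdomere microvilli together, lay at 13.45, 12.59 and 14.30 in the eye and at 2.57, 2.62 and 3.70 in the Elav cells, at least 349-fold higher. The apical polarity gene crb was at least 31.9-fold higher, with Elav arrays spread from 3.78 to 8.09. rst, an adhesion gene that patterns ommatidia, rose 4.09-fold (adjusted p = 0.0231) and Cad86C at least 2.90-fold, and both calls were lost without eye replicate 1, Elav replicate 1 or Elav replicate 2. eys, which opens the space between rhabdomeres, lay at 10.86, 9.46 and 11.02 against 10.55, 11.38 and 10.34, so that the groups overlapped (adjusted p = 0.813). The polarity gene sdt, the actin-membrane linker gene Moe and the membrane-bending gene Amph were not called, at differences of 1.15, 0.86 and -0.83, where that of Moe passed the p threshold but not the fold of 2. The calcium-binding protein gene Cpn (calphotin), a photoreceptor gene outside the list and among the 20 largest rises, was at least 256-fold higher.

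In the lens and cuticle list 3 of 6 tested members were called higher. The lens protein gene retinin lay at 13, 12.40 and 12.99 in the eye and at 3.76, 2.12 and 2.12 in the Elav cells, at least 222-fold higher, and Cpr72Ec, a cuticle protein of the lens, was at least 28.2-fold higher. Both were below the limit on all Elav arrays. Cpr97Eb overlapped between the groups and its call was lost under 5 alternatives. Cpr97Ea lay near 2 everywhere except on Elav replicate 3, at 9.04.

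Transcription factors of the retina were called higher for 8 of 19 members tested and lower for none, with a median difference of 1.62. The list named 25, of which 5 did not pass the filter for testing. With values under 5 raised to 5 the count called higher was 6. gl, a zinc finger factor required for photoreceptor differentiation, lay at 10.71, 9.85 and 11.73 in the eye and at 3.87, 4.09 and 6.17 in the Elav cells, at least 41.5-fold higher. Pph13, a homeodomain factor of rhabdomere and phototransduction genes, lay at 8.95, 7.25 and 9.67 against 2.26, 2.24 and 2.22, at least 12.3-fold higher. eya, of the retinal determination network, was 27.6-fold higher and oc (orthodenticle), which acts in photoreceptor opsin choice, at least 23.7-fold. Each of these 4 was higher on every eye array than on any Elav array. The homeobox genes B-H2 and so and the Runx gene lz also rose. They were higher by at least 4.87-fold for B-H2, 2.57-fold for lz and 3.20-fold for so, from levels of 6.16 to 8.16 in the eye for B-H2 and so and 5.79 to 6.80 for lz, and B-H1, the partner of B-H2, at least 1.32-fold from eye arrays at 4.55, 5.07 and 6.13. The call of so was lost when values under 5 were raised to 5, as was that of B-H1.

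Determination genes that also act in the brain were not called. ey, the Pax6 gene, lay at 5.70, 4.13 and 6.66 in the eye and at 3.87, 10.23 and 3.93 in the Elav cells, high on a single Elav array. toy, the other Pax6 gene, lay at 11.93, 10.68 and 11.93 against 9.42, 10.66 and 9.54 (adjusted p = 0.0535). dac and onecut overlapped between the groups (adjusted p = 0.490 and 0.789). With arrays centred 10 members of the list were called higher.

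Eye pigment genes were called in both directions. Of 17 tested, 4 were called higher, 6 lower and 7 were not called, with a median difference of -1.16. The transporter subunit genes st and bw, which bring pigment precursors into granules, lay at 8.88, 8.24 and 9.53 and at 9.68, 9.04 and 10.46 in the eye, while st lay between 2.25 and 2.26 and bw between 3.51 and 4.50 in the Elav cells. These were rises of at least 14.8-fold for st and 26.5-fold for bw. se, an enzyme of drosopterin synthesis, was at least 16.1-fold higher, and rb, of the AP-3 complex of pigment granule traffic, 3.16-fold. The 6 called lower were the granule and vesicle traffic genes ca, car, cm, dor and p, and pn, between 2.58-fold and 7.47-fold lower, from levels of 5.62 to 10.49 in the Elav cells, with the fold of dor a lower bound. With arrays centred 5 members were called higher and 2 lower, cm and p being those 2. Without eye replicate 2 the number called lower was also 2. The traffic genes g, lt and or were not called, at differences of 1.02, 0.08 and -0.29, and g was the member added as higher by centring.

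Most tested histamine genes were called higher in the eye. Of 9 members tested, of 14 listed, 8 were called higher and none lower, with a median difference of 4.35, and 4 were called higher in a fit of the 6 arrays alone. The summed levels of the list overlapped, at 14.10 to 14.80 in the eye and 13.24 to 14.85 in the Elav cells. The hydrolase gene t (tan), which frees histamine from its storage form, lay at 10.26, 8.83 and 11 in the eye and at 2.52, 2.48 and 2.53 in the Elav cells, at least 32.7-fold higher. CarT, a carcinine transporter of photoreceptors, was at least 47.2-fold higher (10.66, 10.14 and 10.88 against 4.25, 4.84 and 4.43). Both lay below the limit on every Elav array.

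Hdc, the histidine decarboxylase that makes histamine, was even across the eyes at 11.95, 11.51 and 12.11. In the Elav cells it lay at 2.35, 6.08 and 12.24, so the groups overlapped through Elav replicate 3. The fold was at least 17 (adjusted p = 0.0139). Without Elav replicate 3 the difference grew from 4.97 to 7.65 (adjusted p = 1.25e-05), and without Elav replicate 1 or 2 Hdc was not called.

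Other genes of the histamine cycle and its target were low on a single eye. e (ebony), which conjugates histamine in glia, lay at 9.26, 7.88 and 2.38 in the eye and at 2.36 to 2.37 in the Elav cells. Balat, a beta-alanine transporter, lay at 9.80, 9.06 and 2.22 against 2.16 to 2.20. Eye replicate 3 was thus at the level of the Elav cells for both. ort, a histamine-gated chloride channel of the neurons that receive photoreceptor input, lay at 7.11, 5.38 and 3.37 against 2.76, 2.58 and 2.52. The folds were at least 5.21 for e, 7.74 for Balat and 1.78 for ort, and without eye replicate 3 the log2 differences grew from 4.14 to 6.21, from 4.85 to 7.25 and from 2.66 to 3.62. ort lost its call when values under 5 were raised to 5. On that same array t and Hdc, which photoreceptors express, were at 11 and 12.11, the highest of the 3 eyes for each gene. The median of the glial list was 9.41, 9.35 and 8.61 on the 3 eye arrays. Replicate 3 was the highest eye for 4 of its 14 genes and the lowest for 6. The cause of the low values was not tested. In a fit of the 6 arrays alone e, Balat, ort and Hdc were not called. In bulk samples fewer cells of a type and less RNA per cell cannot be told apart.

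The sodium pump subunit gene nrv2 rose 19.2-fold, whereas nrv3 lay at 14.11, 13.39 and 14.03 against 14.84, 13.19 and 14.46 and was not called. The transporter gene ine was at least 3.14-fold higher, from 6.92, 5.53 and 7.50 in the eye, and lost its call when values under 5 were raised to 5.

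**Figure D3:**
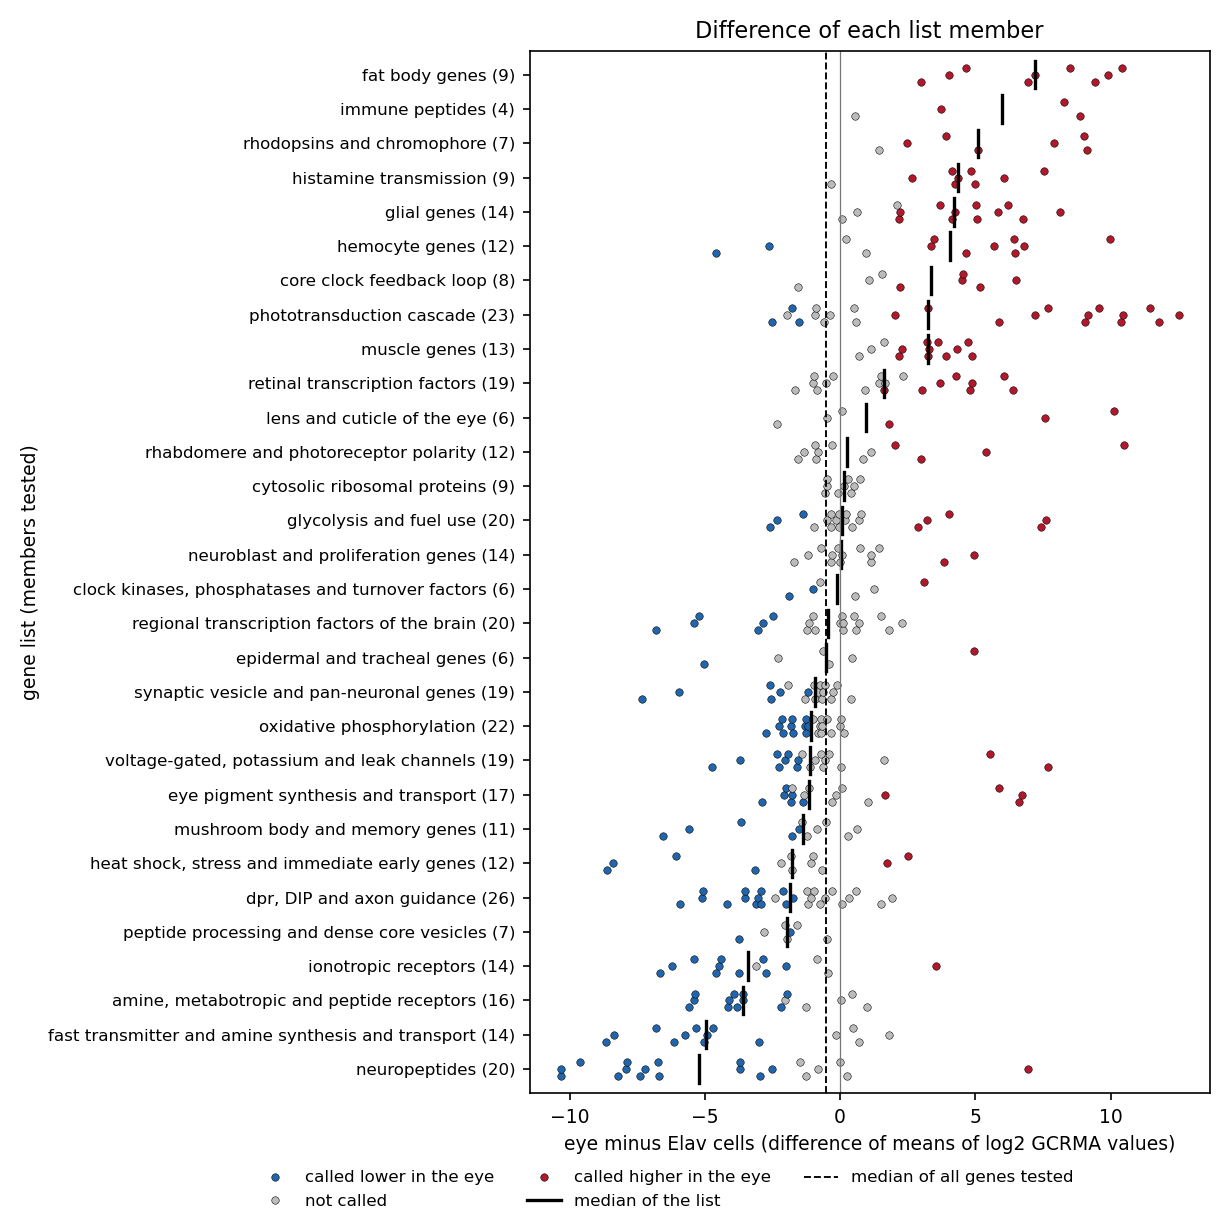
Difference between eye and Elav cells (log2, positive where the eye is higher) for every tested member of 30 gene lists, ordered by the list median. Points are genes, red where called higher, blue where called lower and grey where not called; the short black bars are list medians and the dashed line is the median of all genes tested, -0.50. Fat body, immune peptide, chromophore, histamine and glial lists lie at the top and peptide, transmitter and receptor lists at the bottom.

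Genes of other transmitter systems were lower in the eye. Of 14 members of the list of fast transmitter and amine genes, 10 were called lower and none higher, with a median difference of -4.97. The list median of group means was 8.12 in the eye and 11.21 in adult Elav cells. In every other sorted group it was below the eye, from 3.18 in larval Elav cells to 7.32 in adult small Pdf cells. Tbh, which makes octopamine from tyramine, lay at 2.42, 2.41 and 2.38 in the eye and at 11.89, 10.41 and 10.84 in the Elav cells, at least 66.2-fold lower. Tdc2, the neuronal tyrosine decarboxylase, was at least 64.3-fold lower (2.74, 2.40 and 2.76 against 11.92, 10.61 and 10.49). Neither was above the limit on an eye array. ple, the tyrosine hydroxylase of dopamine synthesis, was at least 33.1-fold lower and also below the limit in all eyes.

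The transporter genes DAT and SerT, for dopamine and serotonin, were detected in every eye and 53.0-fold and 113-fold lower there. Ddc, the decarboxylase of dopamine and serotonin synthesis, was 32.8-fold lower. The GABA genes fell too. Gad1 lay at 10.37, 8.68 and 9.15 against 14.48, 14.19 and 13.64 (26.1-fold, adjusted p = 0.0113), and VGAT was at least 10.8-fold lower.

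Vmat, the vesicular monoamine transporter, was 30.0-fold lower on its brightest probe set (10.71, 11.36 and 9.18 against 15.33, 15.36 and 15.28). Another of its 4 probe sets was at least 834-fold lower, with a mean of 3.73 ± 0.582 in the eye against 14.70 ± 0.321 in the Elav cells (SD, n = 3), and the only Vmat probe set with the eye higher, at 8.06 against 7.06, was not called. The probe sets of Vmat thus ranged from no call to a signal below the limit in every eye.

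Cholinergic genes did not follow. ChAT, which makes acetylcholine, lay at 11.24, 10.54 and 8.64 in the eye and at 9.39, 10.91 and 10.61 in the Elav cells. VAChT, its vesicular transporter, lay at 9.76, 8.81 and 5.74 against 7.01, 7.49 and 7.76. The groups overlapped for both genes (adjusted p = 0.948 and 0.579), and eye replicate 3 was the lowest of the eyes for both. Ace, which breaks acetylcholine down, lay at 9.26, 9.45 and 8.56 against 8.53, 8.69 and 8.60 and was not called. The choline transporter gene ChT fell 7.95-fold (adjusted p = 0.0445), a call lost under 10 of 18 alternatives. Eaat2 (an amino acid transporter) lay at 13.24, 13.05 and 13.21 against 11.87, 10.97 and 11.28 and was not called.

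Neuropeptide genes had the lowest list median, -5.20, with 14 of 20 members called lower and 1 higher. The list median of group means was 4.16 in the eye and 11.95 in adult Elav cells, the highest of all groups. It was 4.74 in adult large and 4.59 in adult small Pdf cells. Among larval groups it ran from 2.73 in Elav cells to 7.53 in Tim cells, so the eye lay within the range of the other sorted groups. NPF, a feeding and arousal peptide, lay at 6.78, 2.45 and 2.49 in the eye and at 13.82, 15.06 and 13.80 in the Elav cells, at least 398-fold lower. FMRFa lay at 2.36, 3.44 and 2.39 against 13.50, 11.70 and 13.98, at least 267-fold lower. Mip (myoinhibitory peptide) was at least 522-fold lower and sNPF at least 227-fold. Of these 4 genes only NPF and Mip had an eye array above the limit, replicate 1 in both cases.

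Ms (myosuppressin) was detected in every eye, at 9.95, 8.61 and 6.62, and was 169-fold lower than in the Elav cells at 15.73, 15.90 and 15.76. Nplp1 was at least 128-fold lower, with eye replicate 1 at 6.64 and the others below 4. The glycoprotein hormone gene Gpb5, outside the list and among the 15 largest falls, was at least 259-fold lower.

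Other peptide genes varied among the Elav arrays themselves, and these were picked out after their values were seen. Crz (corazonin) lay at 2.69, 14.01 and 15.11 in the Elav cells and near 2.73 in every eye. Without Elav replicate 1 its difference went from -7.87 to -11.83. ITP lay at 15.65, 10.29 and 15.39 against 10.44, 9.86 and 9.94, and Ilp2 at 2.78, 10.71 and 5.25 against 2.31, 2.32 and 3.02. Groups overlapped for all 3 genes, and none of them was called in a fit of the 6 arrays alone. Without Elav replicate 2 the difference of Ilp2 was -1.46 and not called, against -3.69 (adjusted p = 0.0239) with it.

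The exception in the list was Nplp3, a neuropeptide-like precursor. It lay at 9.01, 9.92 and 10.17 in the eye and at 2.87, 2.60 and 2.77 in the Elav cells, at least 26.0-fold higher. Nplp2, listed among hemocyte genes, also rose, at least 631-fold (14.61, 15.11 and 14.81 against 3.77, 6.62 and 4.22). Peptide processing genes differed less than the peptides. The prohormone convertase gene amon fell 13.3-fold and the amidating enzyme gene Phm 3.62-fold, and the other 5 of 7 tested were not called. The list median was still -1.95. For 6 of the 7 every eye array lay below every Elav array, against 36.3% of all genes. Across the alternatives the number called lower ran from 2 to 6.

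**Figure D4:**
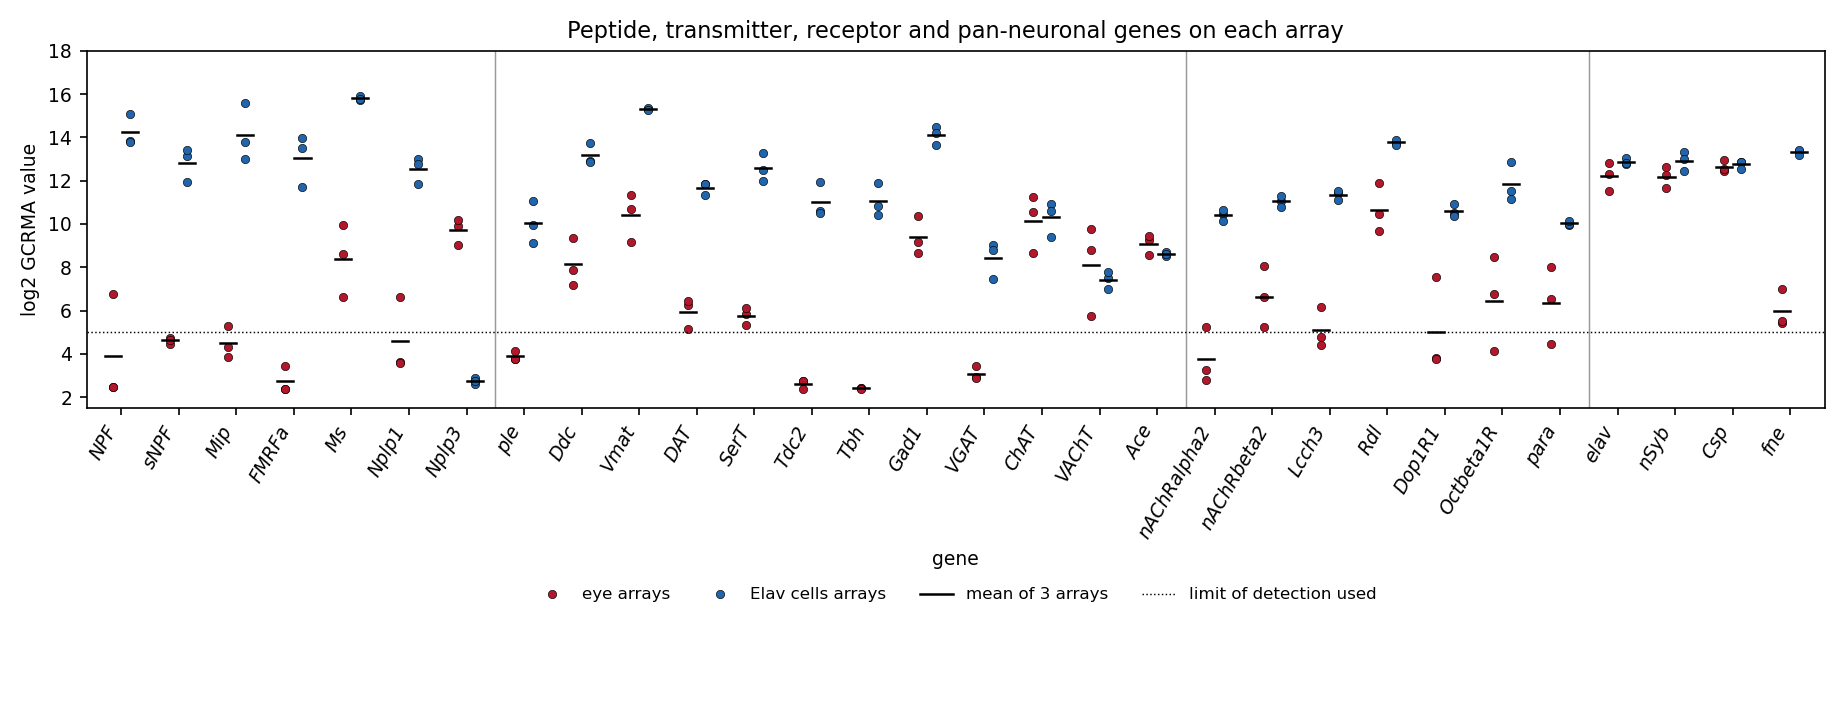
Log2 values of 30 genes on each of the 3 eye arrays (red) and 3 Elav arrays (blue), with the mean as a bar and the limit of detection dotted; vertical lines part neuropeptides, transmitter genes, receptors and channels, and pan-neuronal genes. ChAT, VAChT, Ace, elav, nSyb and Csp lie at like levels in both groups, Nplp3 is higher in the eye, and for most others the eye lies lower, with eye replicate 1 often the highest of the 3.

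Receptor genes were lower in the eye as well. Among ionotropic receptors 10 of 14 were called lower and 1 higher, with a median of -3.42. The acetylcholine receptor subunit gene nAChRalpha2 lay at 5.23, 3.27 and 2.79 against 10.48, 10.64 and 10.12, at least 40.4-fold lower, and nAChRbeta2 was 21.0-fold lower. The GABA receptor subunit gene Lcch3 was at least 61.8-fold lower and the glutamate receptor gene GluRIA at least 16.8-fold, while Nmdar1 was 13.3-fold lower. The GABA receptor gene Rdl lay at 11.87, 10.45 and 9.68 against 13.76, 13.90 and 13.67 and was not called (adjusted p = 0.0855), although the groups did not overlap. nAChRbeta3 was the member called higher, at 5.48, 6.65 and 6.64 against 2.65, 2.81 and 2.74, and it lost the call when values under 5 were raised to 5.

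Among amine, metabotropic and peptide receptors 11 of 16 were called lower and none higher, with a median of -3.58. The dopamine receptor genes Dop1R1 and Dop2R were at least 27.2-fold and 17.2-fold lower, and the octopamine receptor gene Octbeta1R at least 34.5-fold (8.46, 6.78 and 4.14 against 11.17, 12.87 and 11.53). 5-HT1A, a serotonin receptor, was 12.0-fold lower. 5-HT2A lay at 8.68, 7.56 and 8.33 in the eye against 6.45, 9.11 and 6.07 and was not called.

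The eye arrays differed among themselves in these lists. Eye replicate 1 was the highest of the 3 eyes for 12 of the 14 ionotropic receptors, 11 of the 16 other receptors and 15 of the 19 synaptic and pan-neuronal genes. Eye replicate 3 was the lowest for 9 of the ionotropic and 10 of the other receptors, while among the synaptic and pan-neuronal genes replicate 2 was the lowest for 10 and replicate 3 for 8. For the phototransduction cascade eye replicate 3 was highest for 16 of 23 genes and replicate 2 lowest for 18. The part of brain tissue in these levels was not tested.

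Ion channel genes were lower for 8 of 19 members and higher for 2, with a median of -1.11, and with arrays centred 2 were lower and 2 higher. The number called lower was 3 without eye replicate 2 or Elav replicate 2, 4 without Elav replicate 1 and 5 without eye replicate 3. The voltage-gated sodium channel gene para lay at 8.03, 6.54 and 4.45 against 9.94, 9.98 and 10.15, at least 11.3-fold lower. The potassium channel gene Shaw was at least 10.1-fold lower. Irk2, an inward rectifier potassium channel, was the largest rise in the list, at 10.60, 10.17 and 10.22 against 2.76, 2.47 and 2.68, at least 40.3-fold. Slob, which binds the potassium channel Slowpoke, rose 47.0-fold (11.27, 11.05 and 10.86 against 5.28, 5.52 and 5.72), while slo itself was not called. A second Slob probe set had a difference of -0.96.

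Most pan-neuronal genes were not called. Of 19 synaptic vesicle and pan-neuronal members 6 were called lower, 13 were not called and none was higher, with a median of -0.94, and 3 were lower with arrays centred or without Elav replicate 2. nSyb, the vesicle fusion protein synaptobrevin of neurons, lay at 12.64, 11.65 and 12.25 against 13.33, 12.98 and 12.43, and the vesicle chaperone gene Csp at 12.96, 12.47 and 12.53 against 12.87, 12.85 and 12.53. fne, an RNA-binding protein of the ELAV family, lay at 7, 5.41 and 5.54 against 13.38, 13.40 and 13.17, 161-fold lower. Among genes found in neurons at large fne thus stood well below its Elav level in every eye. Rbp, the RIM-binding protein of the active zone, was at least 57.1-fold lower, and Snap25, a fusion protein of the synapse, 4.65-fold. The active zone genes brp, cac and Rim were not called on their brightest probe sets, but Rim had a second probe set at least 7.81-fold lower.

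Mushroom body and memory genes were lower for 5 of 11 and higher for none, with a median of -1.39, and 3 were lower with arrays centred or without Elav replicate 2. prt, a vesicular transporter of mushroom body neurons, lay at 2.36, 2.42 and 2.74 against 8.95, 9.72 and 8.44, at least 16.4-fold lower, and dnc, the cAMP phosphodiesterase, was 12.7-fold lower. Regional transcription factors of the brain were lower for 6 of 20 and higher for none, with a median of -0.46. As a list they thus lay near all genes, of which 25.5% were called lower, with a median of -0.50. With arrays centred 4 were lower and 2 higher. The forkhead gene fd59A and the Hox gene Dfd lay below the limit in all eyes and were at least 28.7-fold and 9.53-fold lower. Surface recognition genes of the dpr, DIP and axon guidance list were lower for 13 of 26 and higher for none, with a median of -1.86, and with arrays centred 9 were lower and 1 higher. dpr11 was at least 49.6-fold lower (6.44, 4.64 and 4.54 against 11.78, 10.79 and 10.76) and unc-5, the netrin receptor, 11.6-fold.

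Clock genes were higher in the eye. Of the 8 genes of the core feedback loop 5 were called higher and none lower, with a median of 3.35, and with arrays centred or quantile normalised again 7 were called higher. vri, a repressor of Clk, lay at 12.94, 12.79 and 13.38 in the eye and at 4.75, 7.80 and 7.04 in the Elav cells, at least 85.8-fold higher (adjusted p = 3.19e-08). tim lay at 12.54, 11.91 and 12.87 against 9.43, 7.17 and 7.15, a rise of 23-fold (adjusted p = 1.41e-06). Pdp1, an activator of Clk, rose 4.61-fold from 10.39 to 11.40 in the Elav cells. On these 3 genes no Elav array reached the level of any eye.

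cry, the blue light receptor of the clock, lay at 9.73, 8.81 and 9.64 against 2.38, 7.20 and 3.05, at least 12.6-fold higher, with 1 Elav array above the limit. Clk, which with cyc forms the activator of the loop, lay at 8.64, 5.51 and 6.78 against 2.58, 2.37 and 2.49, at least 3.94-fold higher, and lost its call when values under 5 were raised to 5. per was higher on every eye array (9.46, 8.31 and 9.14 against 7.61, 7.44 and 7.25), but its difference of 1.54 ± 0.72 (SE) was not called (adjusted p = 0.0969). cwo, a repressor in the loop, and cyc, the partner of Clk, were not called, at differences of 1.07 and -1.56. All samples were taken near 1 time of day, so no cycle can be read from them.

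Of the 6 kinase, phosphatase and turnover genes of the clock tested, tws, a regulatory subunit of protein phosphatase 2A, rose 8.62-fold (12.76, 12.60 and 12.51 against 9.97, 8.65 and 9.93). dco (doubletime), which phosphorylates PER, and slmb, which targets it for degradation, were called lower, 2.00-fold and 3.72-fold, and neither was called after centring, after another quantile normalization, or without eye replicate 1, eye replicate 2 or Elav replicate 1.

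Set beside the sorted clock neurons of the series, clock gene levels in the eye lay between those of the Elav cells and those of the PDF cells for 5 of the 8 genes. For tim the means were 7.91 ± 1.31 in Elav cells (SD, n = 3), 12.44 ± 0.489 in the eye (SD, n = 3), 14.07 ± 0.146 in adult large Pdf cells (SD, n = 3) and 14.95 ± 0.0205 in adult small Pdf cells (SD, n = 2). In the same groups the means of cry were 4.21, 9.39, 12.27 and 12.53. Those of per were 7.43, 8.97, 12.00 and 11.81, with large and small Pdf cells overlapping. The genes vri and cwo also lay between. Clk in the eye (6.98 ± 1.58, SD, n = 3) overlapped with large Pdf cells (6.22 ± 1.79, SD, n = 3) and lay below small Pdf cells (9.60, n = 2), and Pdp1 lay at 13.13 in the eye against 12.66 and 13.52. These levels are a description and were not tested.

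**Figure D5:**
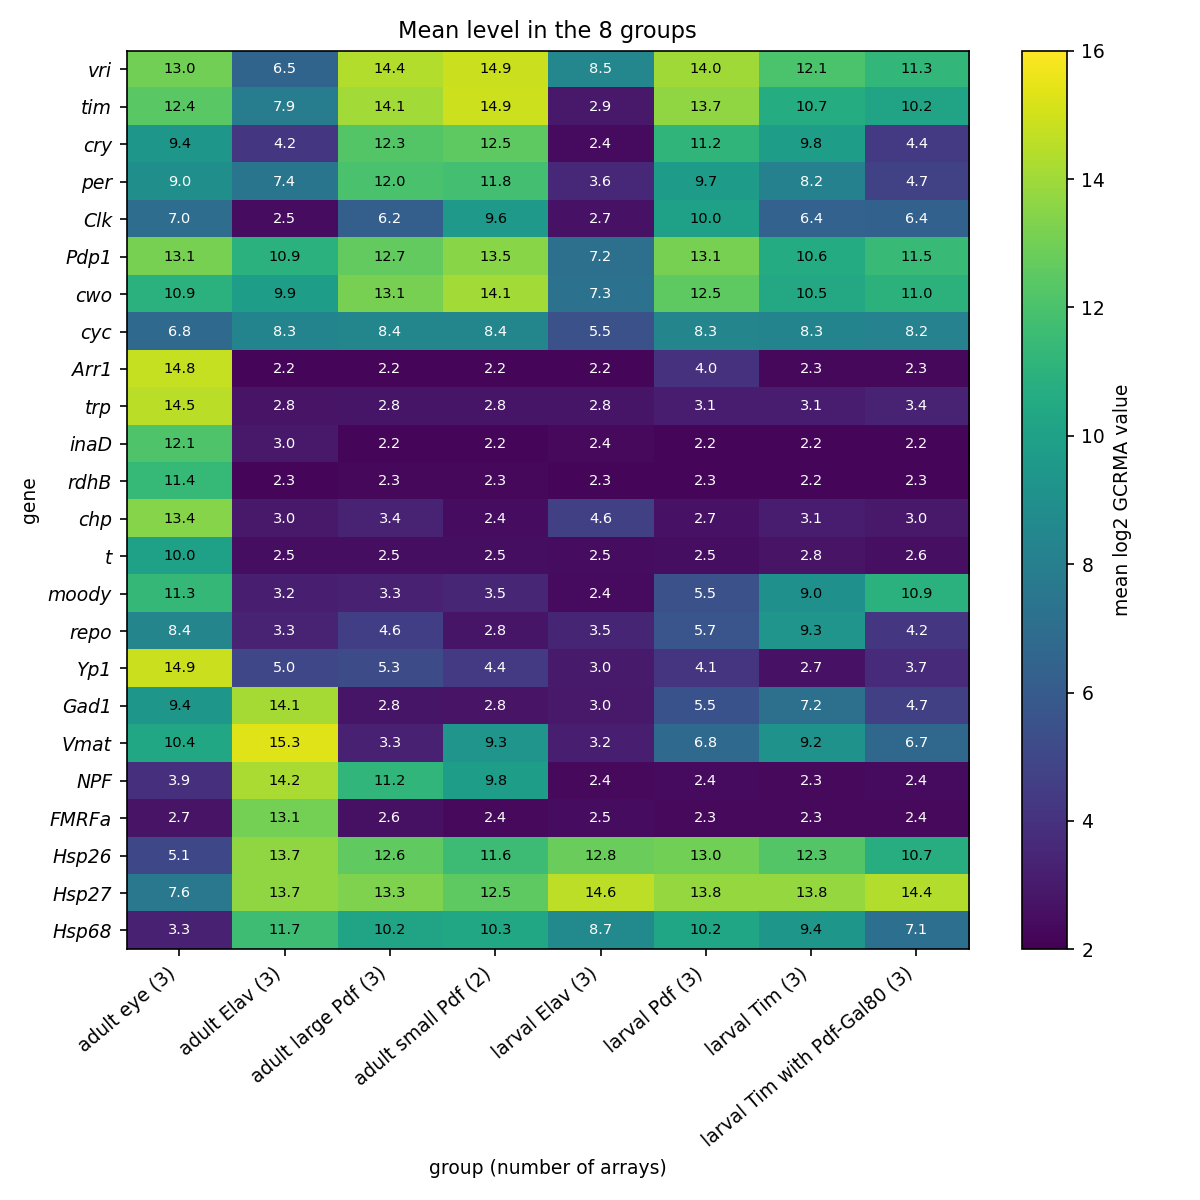
Mean log2 value of 24 genes in all 8 groups of the series, with the number of arrays in parentheses and the colour scale from 2 to 16. The phototransduction, chromophore and rhabdomere genes Arr1, trp, inaD, rdhB and chp and the histamine gene t are high in the eye and below 5 in every sorted group. Every clock gene but cyc has a higher mean in the eye and in Pdf cells than in adult Elav cells. The mean of cyc is 6.78 in the eye and 8.34 in adult Elav cells. Each of the 3 heat shock genes has a lower mean in the eye than in every sorted group.

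Of the 7670 genes tested, 171 lay above the limit on all 3 eye arrays and below it on all 20 arrays of sorted cells. They passed the filter through the eye arrays alone, so their high eye level follows from how they were chosen. Of the 171, 16 belonged to the eye lists, among them Arr2, trp, trpl, inaD, inaC, Gbeta76C, PIP82, rdhB, ninaG, retinin, Pph13, lz and t. The eye lists were phototransduction, retinal transcription factors, rhabdomere, histamine, chromophore and lens, with 23, 19, 12, 9, 7 and 6 members tested. The brightest outside these lists were BomS6, a secreted immune peptide, pkm and Cpn, at eye means of 13.80 ± 0.725, 13.39 ± 0.670 and 13 ± 0.410 (SD, n = 3). Arr1 was not among the 171, because it rose above the limit on an array of another sorted group.

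Marker lists of fat body, glia, hemocytes and muscle were mostly higher in the eye. All 9 tested fat body genes were called higher in the eye, with a median of 7.19, and their summed level lay between 15.74 and 16.70 in the eye and between 7.73 and 8.80 in the Elav cells. The yolk protein genes Yp1, Yp2 and Yp3, secreted by the female fat body, were at least 491-fold, 168-fold and 516-fold higher, and the lipophorin gene apolpp at least 336-fold. Yp1 lay at 14.62, 15.24 and 14.76 in the eye and at 3.33, 7.81 and 3.84 in the Elav cells. Without eye replicate 2 or 3, or Elav replicate 1 or 2, the count was 7 of 9. Lsp2, a defining fat body marker, was not even, at 4.63, 9.79 and 6.73 in the eye and at 7.87 on Elav replicate 3. Eye replicate 1 was the lowest of the eyes for 8 of the 9 genes.

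Glial genes were higher for 11 of 14 and lower for none, with a median of 4.20. Of the defining markers, repo, the glial homeodomain factor, lay at 8.80, 8.64 and 7.72 in the eye and at 3.33 to 3.35 in the Elav cells, at least 10.5-fold higher, and moody, a receptor of the blood-brain barrier, was at least 78.9-fold higher. wrapper, of midline and cortex glia, was called at an adjusted p of 0.0457, lost under 9 alternatives, and alrm, of astrocyte-like glia, was below 5 on all 6 arrays. The summed level of the list was 13.80 to 14.04 in the eye and 8.58 to 12.02 in the Elav cells. Indy, a citrate carrier, was even in the eye at 11.11, 11.54 and 11.80 but reached 11.53 on Elav replicate 3, and without that array its difference went from 5.01 to 7.53. The count of glial calls was 7 without Elav replicate 2.

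Hemocyte genes were higher for 8 of 12 and lower for 2, with summed levels of 15.14 to 15.68 in the eye and 11.97 to 12.20 in the Elav cells. Their median difference was 4.07. Hml (hemolectin), a defining marker, lay at 6.81, 8.01 and 9.02 against 2.23 to 2.35, while He was below 5 on all 6 arrays and eater above it on eye replicate 3 only. The basement membrane genes Col4a1, vkg and Ppn and the GATA factor gene srp were at least 66.7-fold, 12.4-fold, 43.4-fold and 41.1-fold higher, with the call of vkg lost without eye replicate 2 or 3 or Elav replicate 1 or 2. Pxn (peroxidasin) and PPO2 (a prophenoloxidase) went the other way, Pxn at least 23.3-fold lower and PPO2 6.24-fold. Muscle genes were higher for 10 of 13, with a median of 3.23 and summed levels of 11.38 to 11.76 against 7.42 to 9.44. The gene sls (a titin-like protein) was at least 16.4-fold higher and Mlc1, a myosin light chain, at least 6.03-fold, from 8.52, 7.61 and 6.65 in the eye. The muscle gene up crossed the limit on 2 of 3 eye arrays and Act88F, of the flight muscle, was not called. Neuroblast and proliferation genes were higher for 2 of 14, with a median of 0.02. Epidermal and tracheal genes were higher for 1 of 6 and lower for 1, with a median of -0.51. These counts lay near those over all genes, of which 14.4% were called higher and 25.5% lower. The part of these cell types in the levels of any other gene was not tested.

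Immune peptide genes were higher for 3 of 4 tested. The metchnikowin gene Mtk lay at 13.38, 12.82 and 12.50 in the eye and at 3.55, 5.32 and 3.19 in the Elav cells, at least 222-fold higher, and the secreted recognition protein gene PGRP-SB1 was at least 157-fold higher. Drs (drosomycin) varied more, at 5.94, 9.79 and 7.01. The peptides BomS6, BomS2 and IM33 and their partner Bbd, all among the 20 largest rises, were at least 447-fold, 398-fold, 354-fold and 336-fold higher. MtnA, a metallothionein that binds copper, was at least 556-fold higher (14.54, 14.10 and 13.96 against 5.25, 4.30 and 4.58). The remaining large rises, CG34166, CG13631 and CG9928, were between 223-fold and 280-fold higher at the least.

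The heat shock genes Hsp26, Hsp27 and Hsp68 had lower means in the eye than in every sorted group, but their list as a whole did not. Of 12 heat shock, stress and immediate early genes 4 were called lower and 2 higher, with a median of -1.78. Over all genes 25.5% were called lower and 14.4% higher. The list median of group means was 7.30 in the eye, 10.35 in adult Elav cells and 6.10 in larval Elav cells. Hsp26, a small chaperone, lay at 4.25, 4.29 and 6.64 in the eye and at 13.40, 13 and 14.68 in the Elav cells, at least 284-fold lower. Hsp68 lay at 3.14, 3.25 and 3.43 against 11.54, 11.02 and 12.45, at least 102-fold lower, and Hsp27 was 66.9-fold lower. In the 7 sorted groups the mean of Hsp26 ran from 10.71 to 13.69 and that of Hsp27 from 12.51 to 14.60, all above the eye at 5.06 and 7.60. The eye was thus below every sorted group for both. Immediate early and stress genes did not share a direction, since kay (the Fos gene) and puc, a phosphatase of JNK signalling, rose 3.33-fold and 5.69-fold, with the call of kay lost without eye replicate 3 or Elav replicate 2, and Hr38, sr and Jra were not called. The part of dissociation and sorting in these levels cannot be told apart from the tissue, as every sorted group went through both.

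The largest falls outside the peptides were led by CG8401, at 4.06, 3.46 and 2.79 in the eye and at 14.92, 15.28 and 14.45 in the Elav cells, at least 943-fold lower. CG12239 was at least 643-fold lower, with Elav replicate 1 at 11.64 and the others at 15.62 and 15.72. CG1275 was detected in every eye (7.10, 6.89 and 7.02) and was 147-fold lower, Tmtc2 at least 133-fold and CG2269 109-fold.

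Part of the energy metabolism genes were lower. Of 22 oxidative phosphorylation genes 11 were called lower and none higher, with a median of -1.08, but 5 were lower with arrays centred, 7 after another quantile normalization and 6 without eye replicate 2 or Elav replicate 1. COX5A, a cytochrome c oxidase subunit, lay at 11.50, 11.19 and 11.77 against 13.66, 13.73 and 13.37, 4.29-fold lower, and the complex I gene ND-39 was 6.61-fold lower. ATPsynbeta did not differ beyond its error, at 0.01 ± 0.33 (SE).

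Glycolysis and fuel genes split, with 5 of 20 higher and 3 lower and a median of 0.07, or 8 higher and 1 lower with arrays centred. Tps1, which makes the blood sugar trehalose, was at least 50.4-fold higher and Treh, which splits it, 7.40-fold. Pepck1, of glucose synthesis, lay at 13.80, 13.74 and 13.34 in the eye and at 3.15, 3.28 and 11.57 in the Elav cells, and without Elav replicate 3 its difference went from 7.62 to 10.41. Pgk, of glycolysis, was 6-fold lower. Gpdh1 depended on its probe set, with 1 of 4 called lower (3.59-fold) and 2 called higher (8.22-fold and 5.39-fold). Of 9 cytosolic ribosomal protein genes tested 0 were called by limma and 0 had an unadjusted p under 0.05, with differences from -0.57 to 0.74. With arrays centred 3 were called higher.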

How the data were processed

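RNA of 3 dissected eye samples and 3 samples of sorted adult Elav cells was hybridised to Affymetrix Drosophila arrays. Per the submitters' processing notes the authors used GCRMA, and the deposited table is on the log2 scale. GCRMA corrects background from probe sequence, normalizes between arrays and summarises the probes of a probe set. Neither its version nor its settings are given in the labels, nor whether arrays were processed jointly. Low values pile up near 2 and carry no order, and quantile normalization between a tissue and sorted cells can shift all genes together.

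Of 18952 probe sets, 183 were controls, 13647 had 1 gene symbol, 402 several and 4720 none, and 13544 symbols were updated through RefSeq annotation. Each of the 11982 genes was represented by the probe set whose mean across the 23 arrays was highest. Testing was limited to genes whose value exceeded 5 on 2 or more of all 23 arrays in the series, which left 7670. Among these, 612 genes (8.0%) lay below the limit on all 6 arrays of eye and adult Elav cells. limma 3.58.1 (R 4.3.3) was fitted to all 23 arrays by group, with 15 residual degrees of freedom, and p-values were adjusted by Benjamini-Hochberg over all genes tested. The procedure was tested on simulated data with 200 changed genes, where it recovered 12% of changes of 1.5 and 50% of changes of 3 (log2). In the data 3063 genes were called, and the adjustment is stricter where fewer genes change. The simulated shares therefore do not measure recovery in this comparison, though smaller differences can be missed. The number of arrays limits the precision. A rank permutation of 3 against 3 arrays cannot go below p = 0.1.

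Named were the 20 largest rises, the 15 largest falls, members of the eye and clock lists, up to 6 called members of each other list, elav and Pdf, and members that were not called where their values are given. The members and lists were chosen with earlier results of these data known. Biological replicates is all that the labels say of the samples, with no batch, and the p-values therefore reflect only how these samples varied. Same-numbered eye and Elav arrays deviated together at r = 0.087, -0.016 and 0.073, so the numbers were not taken as pairs.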

Additional observations from a re-analysis of the deposited data

How the results depend on the processing

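Over 18 alternatives, 136 of 179 named genes called kept their call and direction under every one, and 43 lost the call under at least 1. Of 3978 differences compared, 153 lost and 60 gained a call, and 2 reversed, Galphaq to 2.81 and rdgA to 3.17 with the mean of all probe sets of a gene, whose probe sets themselves differed in sign. Of 1080 list counts, 72 moved by more than 1.5 times. Centring moved the number of genes called lower from 1956 to 1107 and the share of calls that were higher from 36.1% to 57.4%, and another quantile normalization gave 46.3%; the cause was not tested. Leaving out 1 array gave 921 to 1105 genes higher and 1306 to 1858 lower. The replicate block gave 1083 higher and 1891 lower, and as the numbers do not pair the samples, it is given here only. Testing each probe set on its own, chosen after seeing the data, gave 1201 higher and 2083 lower. Signals under 5 bound a fold and do not measure it. Tissue, dissection, sorting and, where the eye label gives none, genotype cannot be told apart in this comparison.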

Other observations

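Gene families grouped by the start of their symbol, chosen after their values were seen, showed further differences between eye and Elav cells. All 8 tested Bom genes, which encode secreted immune peptides, were called higher in the eye, with a median difference of 8.65. Among Obp genes, of the odorant-binding proteins, 12 of 13 were higher, with a median of 5.84. Of 50 Cyp genes, the cytochromes P450, 33 were higher and 0 lower, with a median of 3.52. Glutathione transferases of the GstE group were higher for 6 of 10 and lower for 1, glucuronosyltransferase genes of the Ugt family were higher for 7 of 11, and PGRP genes, of peptidoglycan recognition, for 4 of 6. The counts under centring were 8 for Bom, 13 for Obp and 35 for Cyp.

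In the other direction, 14 of 17 dpr genes and 6 of 8 beat genes, both families of neuronal surface proteins, were lower, with medians of -3.88 and -4.00, and 11 and 6 were lower with arrays centred. Mitochondrial ribosomal protein genes were lower for 36 of 69 and higher for 2, and with arrays centred for 23 and 3. Proteasome subunit genes were lower for 6 of 13, and for 1 with arrays centred. Of the 4720 probe sets with no gene named here, 55 lay above the limit on all eye arrays and below it on all Elav arrays, 29 did the reverse, and 4 were at least 10 (log2) higher in the eye.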
